A study of Mus musculus with 12 samples.

Results

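DNA repair and replication checkpoint genes were followed in B16 cells, a mouse melanoma line, after depletion of Elp3. The group holds 36 genes of the 24421 in the deposited count table, taken by gene symbol from a list of names, and all 36 have a row. That list was chosen with earlier results of these data known. The cells of every group were B16 cells transduced with lentivirus, carrying either an shRNA of no relevant target (shControl) or a single shRNA against Elp3, named sh309 (shElp3). From each, total RNA and ribosome-protected fragments (RPF, mRNA pieces covered by a ribosome and so spared by nuclease digestion) were sequenced in 3 libraries lettered A, B and C. The 12 libraries thus form 4 groups. The labels relate every RPF library to the RNA library with its shRNA and letter. A single hairpin stands for the depletion. Nothing in the labels says that the letters were separate transductions, so p-values measure only the spread between these cultures. Elp3 is the catalytic subunit of Elongator, a complex that modifies the wobble uridine of a set of tRNAs, and the study asked what its loss does to RNA levels and to their translation.

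The genes fall into 6 roles. Homologous recombination mends a break by copying the intact sister, the Fanconi anaemia pathway unhooks crosslinks between the strands, and both work mainly in cells that are replicating their DNA. Replication protein A (RPA) coats the single-stranded DNA of stalled forks and resected breaks, and the kinases Atr and Chek1 read that coat and hold back division, while Atm and Chek2 answer to double-strand breaks. Flap, nick and single-strand break enzymes finish the lagging strand, and end joining works through most of the cell cycle. The role that holds end joining also takes in the mismatch recognition gene Msh6. Many of these genes are transcribed most in the cells that enter or pass through S phase, often through E2F factors.

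The RNA libraries held 7914369 to 16527864 counts and the RPF libraries 7619269 to 10998570. Values below are counts per 1000000 (CPM) after scaling by the trimmed mean of M-values (TMM). Letter A stood apart in 3 of the 4 groups. Across genes the control RNA library A had a Spearman correlation of 0.876 with B and 0.866 with C, against 0.992 for B with C. The shElp3 RNA library A had 0.926 and 0.934 against 0.985 and the control RPF library A 0.941 and 0.947 against 0.992, while the shElp3 RPF libraries had 0.991, 0.982 and 0.987. Results are therefore also given for letters B and C alone, and, for total RNA and for translation relative to RNA, with the letter as a block. Letter A was left out after it was seen to stand apart, and B and C were much alike. The p-values of letters B and C measure only the small spread between those libraries. They are a description beside the fits with all libraries and not a separate test. In RNA, Elp3 itself had 78.6 ± 13.3 CPM in shControl and 37.3 ± 3.41 in shElp3 (mean ± SD, n = 3). That is a log2 fold change of -1.08 ± 0.22 (± SE here and below), with an edgeR adjusted p of 0.083, or 9.8e-04 with the letter block. In RPF it had 105 ± 11.4 CPM in shControl and 55.0 ± 5.85 in shElp3 (-0.93 ± 0.15, adjusted p = 0.025). All 8 melanocyte lineage markers were detected, and all 8 had log2 fold changes below 0 in both fractions. Of them 1 was called lower in RNA and 2 in RPF, as were 0.921% and 3.06% of all genes tested. Their summed level was 8931 to 11901 CPM in shControl RNA and 5948 to 7467 in shElp3 RNA. In RPF it was 14683 to 34046 against 11452 to 20313. Markers of other cells were low. The 8 leukocyte markers summed to 7.598 to 22.5 against 6.23 to 11.7 CPM in RNA and 23.6 to 77.1 against 13.7 to 32.7 in RPF. The 6 fibroblast markers summed to 13.1 to 24.4 against 21.8 to 43.1 and 24.8 to 26.6 against 35.3 to 40.2 with Dcn at 0 in all libraries. Of the 2 fibroblast markers tested in RPF 1 was called higher, as were 1.77% of all genes tested. The 6 epithelial markers summed to at most 1.38 with Krt14 at 0. The part of these shifts in the results below was not tested.

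Part of the repair genes fell after Elp3 depletion, and none passed the test as higher with all libraries in edgeR. In total RNA 5 of the 36 fell at an adjusted p of 0.05: the checkpoint kinase Chek1, the crosslink repair protein Fancd2, the helicase Pif1, the recombination cofactor Rad51ap1 and the RPA subunit Rpa2, each to between 12.05 and 28.0% of its control level. That is 13.9% of the members, where 0.921% of the 12274 genes tested were called lower and 0.22% higher. In 20 members all shElp3 RNA values lay below all control values, and in 0 above, as in 9.56% and 10.2% of genes. In RPF 9 fell: Bard1, Blm, Fancd2, Lig1, Pif1, Rad54b, Rad54l, Rpa2 and Topbp1, or 25% of the members against 3.06% of the 11343 genes tested, where 1.77% of all were called higher. The groups did not overlap in RPF for 16 members lower and 1 higher, Xrcc6, as in 15.3% and 15.4% of genes. Fancd2, Pif1 and Rpa2 were called in both fractions. The median log2 fold change over the 36 members was -1.06 in RNA and -0.97 in RPF, beside -0.02 and -0.01 over all genes tested, and 33 members lay below 0 in RNA.

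The counts depended on how letter A was treated. With the letter as a block 22 members fell and 0 rose in RNA, where 6.75% of all genes were called lower and 5.46% higher. In letters B and C alone 27 fell and 0 rose in RNA (10.5% and 8.88% of all genes), 25 fell in RPF (12.2%), and 24 were called in both. Xrcc6 was the 1 member called higher in those 2 letters, in RPF, where 9.41% of all genes were. Leaving out the control library A alone gave 19 lower and 0 higher in RNA (3.01% and 1.35% of all genes) and 26 lower and 1 higher in RPF (14% and 10.7%). Leaving out the control library B or C, or any 1 shElp3 library, left 0 members called in RNA and at most 1, Rpa2, in RPF. Those same fits called 0 genes of the whole table in RNA and 0 to 59 in RPF. At an unadjusted p under 0.05 with all libraries, 20 members were lower in RNA, as were 795 of the 12274 genes, and 22 were lower and 1 higher in RPF, as were 1404 and 1218 of the 11343 genes. DESeq2 called 16 lower and 0 higher in RNA (3.43% and 1.88% of all genes) and 20 lower and 1 higher, Xrcc6, in RPF (6.88% and 4.65%). All 6 libraries of a fraction entered each value unless another set is named, and fewer dividing cells and less RNA per cell cannot be told apart in these bulk libraries.

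**Figure D1:**
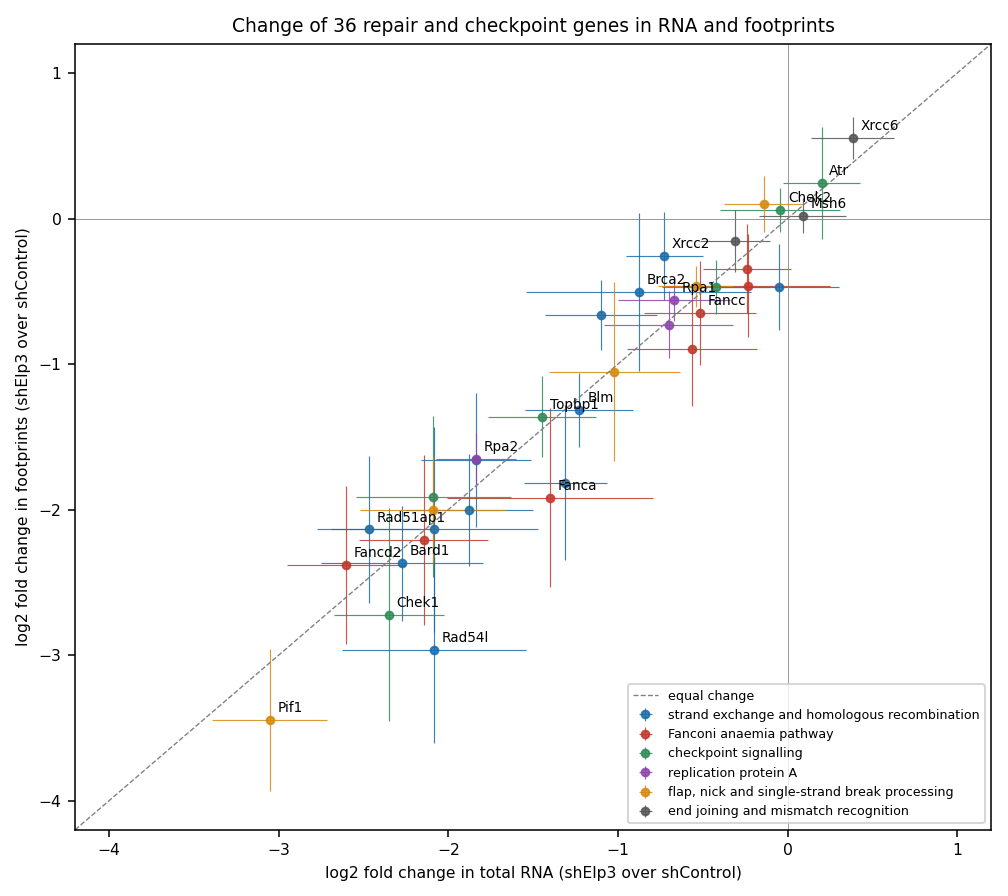
Change of each of the 36 genes in total RNA (x axis) and in RPF (y axis), as log2 fold change of shElp3 over shControl, coloured by role, with bars of 1 standard error. Most points lie in the lower left along the diagonal, down to -3.05 and -3.45 for Pif1, while Msh6, Chek2, Atr and Xrcc6 lie near or above 0.

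Genes of DNA replication and division moved alongside. Of 23 genes of the MCM helicase and its loading, 6 were lower in RNA and 10 in RPF (medians -1.38 and -1.35), and of 12 mitotic kinase genes 9 were lower in RNA and 7 in RPF (medians -2.38 and -2.17). With the letter block 18 and 12 of them were lower in RNA. The share of dividing cells was not measured, and its part in the repair genes' values was not tested.

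**Figure D2:**
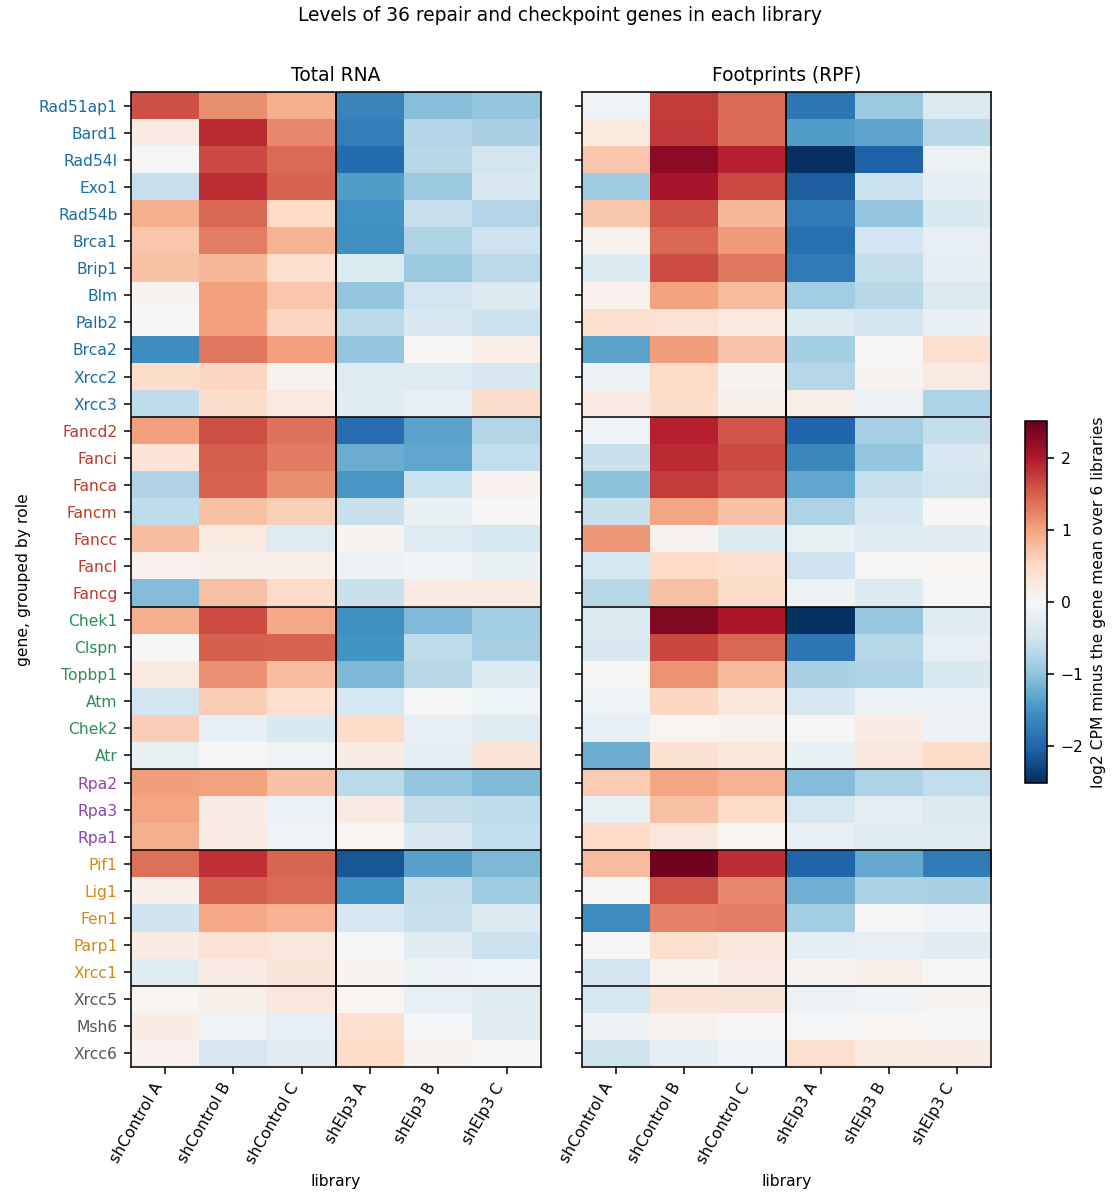
Level of each gene in each of the 12 libraries, as log2 CPM minus the gene's mean over the 6 libraries of the same fraction, with genes grouped by role. The shElp3 libraries are below the mean for most genes of the recombination and Fanconi roles, and control library A is lower than B and C in RPF for 32 of the 36 genes.

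RefSeq promoter windows (build GRCm38.p6, 250 bases before to 50 after the start) were held for 31 of the 36, the others being Exo1, Pif1, Fancd2, Xrcc2 and Rad54b, and were read because so many members moved together. Each start is that of 1 or more RefSeq transcripts, and some genes have more than 1 window. For 22 of the 31 genes a start lies inside the span of a longer annotated gene model. The distance runs from 4 bases for Xrcc5 to 65547 for Fancc, and is 28536 for Xrcc6. The letters TTTGGCGC, TTTCCCGC or TTTCGCGC, the core to which E2F factors bind, were searched on both strands, with overlapping matches allowed. They were found for 9 of the 31 genes (29.0%), beside 2.73% of 17224 genes of the table with a window and 4.15% of 9346 tested in RNA. A gene was counted once if any of its windows held a match. The Lig1 match belongs to a start 1651 bases inside the gene span, and the window at the gene's own start held none. In the 250 bases before these starts alone they were in 6 (19.4%, beside 2.3% and 3.5%), and 5 of those 6 sites, all but that of Bard1, still lie within the annotated gene span. The 9 matches are printed on the gene's strand with 10 bases on either side, with the match in capitals, to show the sequence at genes that fell and at genes that did not:
Bard1 (chr1:71103164-71103191, minus strand): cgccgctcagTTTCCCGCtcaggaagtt
Brca2 (chr5:150522443-150522470, plus strand): ttaggccacaGCGGGAAAcagacacaca
Chek2 (chr5:110839821-110839848, plus strand): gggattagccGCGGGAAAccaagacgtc
Clspn (chr4:126556991-126557018, plus strand): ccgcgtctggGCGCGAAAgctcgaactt
Fancg (chr4:43010336-43010363, minus strand): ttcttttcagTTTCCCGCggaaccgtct
Lig1 (chr7:13278842-13278869, plus strand): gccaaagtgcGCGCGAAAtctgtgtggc
Msh6 (chr17:87975055-87975082, plus strand): tcctcccgacTTTCCCGCcagcggcggc
Topbp1 (chr9:103305188-103305215, plus strand): cgctcggttgGCGCGAAAgtcggttccc
Xrcc6 (chr15:82016313-82016340, plus strand): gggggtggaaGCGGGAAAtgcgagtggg

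Calls for these 9 genes depended on the setting, and differences between them were not tested. With all libraries and no block Bard1, Lig1 and Topbp1 fell in RPF. With the letter block Bard1, Clspn, Lig1 and Topbp1 fell in RNA. In letters B and C Bard1, Brca2, Clspn, Lig1 and Topbp1 were lower in both fractions, Fancg was lower in RPF and Xrcc6 higher in RPF. Chek2 and Msh6 were called in neither fraction in any of these settings. Chek1, Rad51ap1 and Rpa2, which fell in RNA, had none of these letters in their windows. The letters TTTGAA, known as the cell cycle homology region, were found for 2 of the 31 genes. That is 6.45%, beside 17.7% of all genes and 13.6% of those tested in RNA. CCAAT, to which NF-Y binds, was found for 20 (64.5%, beside 42.0% and 43.2%), both strands counted. A match describes the sequence and is not a measured binding site.

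Among 12 genes of strand exchange and homologous recombination the median log2 fold change was -1.57 in RNA and -1.74 in RPF. Of these, Rad51ap1 fell in RNA without a block, 10 fell with the letter block, and 4, namely Bard1, Blm, Rad54b and Rad54l, fell in RPF. Rad51ap1, which helps the recombinase pair strands (chr6:126923415-126939621), had 43.0, 31.7 and 26.6 CPM in shControl and 4.50, 6.77 and 7.09 in shElp3, groups that were far apart in every library. Its RNA fell by 2.47 ± 0.31 on the log2 scale (adjusted p = 0.019), and its footprints were 13.3, 47.4 and 37.7 CPM in shControl and 4.01, 7.41 and 10.9 in shElp3. Rad51ap1 footprints had a log2 fold change of -2.14 ± 0.51 (adjusted p = 0.056, and 3.5e-05 in letters B and C). The lowest control footprint value, that of library A, was still above the highest shElp3 value.

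Brca1 and Bard1 form a ubiquitin ligase that favours recombination at breaks. Brca1 (chr11:101488761-101551955) had 66.6, 99.97 and 75.2 CPM in shControl and 14.3, 24.5 and 28.9 in shElp3, with no overlap, and a log2 fold change of -1.84 ± 0.32 (adjusted p = 0.051, or 2.5e-05 with the letter block). Footprints of Brca1 were 38.9, 98.8 and 76.4 CPM in shControl and 9.90, 26.1 and 31.7 in shElp3, again without overlap (-1.66 ± 0.46, adjusted p = 0.084, and 5.0e-05 in letters B and C). Its partner Bard1 (chr1:71027535-71103141) gave the clearer call in footprints. Bard1 RPF was 18.7, 53.9 and 41.7 CPM in shControl and 6.02, 6.38 and 9.75 in shElp3, a change of -2.37 ± 0.40 (adjusted p = 0.027), and Bard1 RNA was 16.7, 52.1 and 33.2 CPM in shControl and 4.32, 8.67 and 8.20 in shElp3. Bard1 RNA had a log2 fold change of -2.27 ± 0.48 (adjusted p = 0.087, or 1.2e-05 with the block). In both fractions the control library A had the lowest of the 3 control values for Bard1.

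Palb2 bridges Brca1 to Brca2, which loads the recombinase onto single strands. Palb2 RNA was 5.44, 10.9 and 7.83 CPM in shControl and 3.42, 4.16 and 3.70 in shElp3, and fell with the letter block (-1.10 ± 0.33 without it, adjusted p = 0.21, and 0.030 with it), while Palb2 footprints were 5.74, 5.56 and 5.10 CPM in shControl and 3.38, 3.09 and 3.86 in shElp3 (adjusted p = 0.15). Brca2 differed between letters. Its RNA was 6.78, 49.4 and 40.1 CPM in shControl and 10.1, 20.2 and 22.1 in shElp3, so control A lay below all 3 shElp3 libraries. The change was -0.88 ± 0.67 over all libraries (adjusted p = 0.70, or 0.21 with the block) and -1.08 ± 0.17 in letters B and C (adjusted p = 2.5e-04). Footprints of Brca2 showed the same order, with 8.95, 46.2 and 36.9 CPM in shControl and 12.5, 22.9 and 29.6 in shElp3 and an adjusted p of 0.62 over all libraries and 0.021 in letters B and C.

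The helicase Brip1, which binds Brca1, had 51.9, 56.0 and 42.0 CPM in shControl and 24.3, 16.502 and 19.5 in shElp3. Brip1 RNA had a log2 fold change of -1.31 ± 0.24 (adjusted p = 0.062, or 5.2e-04 with the block). Its footprints were 22.5, 88.9 and 71.5 CPM in shControl and 8.40, 18.9 and 24.6 in shElp3, with the control A value below the highest shElp3 value (-1.81 ± 0.53, adjusted p = 0.097, and 1.9e-05 in letters B and C). Rad54l and Rad54b are motor proteins that move along DNA during strand exchange. Rad54l (chr4:116094261-116123700) had footprints of 6.72, 19.9 and 16.1 CPM in shControl and 0.627, 1.03 and 3.75 in shElp3, a change of -2.96 ± 0.64 (adjusted p = 0.043) that rests on 5, 10 and 35 counts in the shElp3 libraries. Rad54l RNA was 6.33, 19.9 and 17.0 CPM in shControl and 1.68, 3.92 and 4.65 in shElp3. Rad54l RNA had a log2 fold change of -2.09 ± 0.54 (adjusted p = 0.15, or 1.3e-04 with the block). Rad54b (chr4:11558920-11615808) had footprints of 14.0, 26.5 and 15.7 CPM in shControl and 2.63, 4.53 and 6.75 in shElp3 (-2.00 ± 0.38, adjusted p = 0.036), and its RNA was 11.02, 16.1 and 8.47 CPM in shControl and 2.098, 4.04 and 3.63 in shElp3 (adjusted p = 0.081, or 8.1e-04 with the block). Neither gene's groups overlapped in either fraction.

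Blm, a RecQ helicase that undoes joined recombination intermediates (chr7:80454993-80535148), had footprints of 26.6, 49.4 and 42.6 CPM in shControl and 13.4, 15.1 and 19.2 in shElp3, a change of -1.31 ± 0.26 (adjusted p = 0.037). Blm RNA was 17.0, 33.0 and 26.1 CPM in shControl and 8.27, 11.5 and 12.7 in shElp3 (-1.23 ± 0.32, adjusted p = 0.15, or 0.0019 with the block) and the groups were apart in both fractions. Exo1, a nuclease that trims break ends, had RNA of 4.54, 24.3 and 19.0 CPM in shControl and 2.58, 3.56 and 5.12 in shElp3, where control A lay inside the shElp3 range (-2.08 ± 0.61, adjusted p = 0.20, or 0.0020 with the block). Its footprints were 2.80, 21.7 and 16.3 CPM in shControl and 1.25, 3.60 and 4.39 in shElp3 (adjusted p = 0.12, and 6.4e-05 in letters B and C). Xrcc2 and Xrcc3 are paralogs of the recombinase. Xrcc2 RNA was 23.2, 24.3 and 17.9 CPM in shControl and 13.5, 13.4 and 12.5 in shElp3 (-0.73 ± 0.23, adjusted p = 0.23, or 0.036 with the block), while its footprints overlapped (-0.26 ± 0.30, adjusted p = 0.66). Xrcc3 overlapped in both fractions, at -0.05 ± 0.35 in RNA and -0.47 ± 0.30 in RPF, and was called in none of the fits with all libraries, the letter block, letters B and C, without control A or with DESeq2.

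In the Fanconi anaemia pathway a core complex attaches ubiquitin to the pair Fancd2 and Fanci, which then act at the crosslink. The estimates for the pair were larger than those for the core, and differences between members were not tested. Fancd2 (chr6:113531640-113597020) had RNA of 55.7, 83.5 and 70.3 CPM in shControl and 7.31, 10.8 and 16.4 in shElp3, with no overlap. Its RNA fell by 2.60 ± 0.35 (log2, adjusted p = 0.023) and its footprints, at 44.1, 183 and 141 CPM in shControl and 12.04, 26.9 and 31.6 in shElp3, fell by 2.38 ± 0.54 (adjusted p = 0.049). All shElp3 values lay below all control values in both fractions. The footprint call was lost with relative log expression or upper quartile scaling. Fanci (chr7:79392312-79450266) had RNA of 16.9, 38.4 and 32.8 CPM in shControl and 5.63, 5.46 and 8.75 in shElp3. Fanci RNA had a log2 fold change of -2.15 ± 0.38 (adjusted p = 0.052, or 6.9e-05 with the block). Its footprints were 12.9, 68.3 and 58.7 CPM in shControl and 6.14, 9.67 and 14.5 in shElp3, with control A under the highest shElp3 value (-2.21 ± 0.58, adjusted p = 0.075, and 9.7e-06 in letters B and C).

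Of the core, Fanca had the largest estimate. Its RNA was 12.7, 59.5 and 47.6 CPM in shControl and 7.79, 14.7 and 22.9 in shElp3 (-1.40 ± 0.61, adjusted p = 0.41, or 0.0030 with the block) and its footprints were 7.83, 54.0 and 47.7 CPM in shControl and 6.52, 10.9 and 11.6 in shElp3. Fanca footprints had a log2 fold change of -1.92 ± 0.62 (adjusted p = 0.12, and 5.9e-06 in letters B and C). Control A stood within the shElp3 range in both. Fancl, the ubiquitin ligase subunit, had RNA of 3.87, 3.94 and 3.96 CPM in shControl and 3.30, 3.44 and 3.23 in shElp3 (-0.24 ± 0.26, adjusted p = 0.81) and footprints of 4.62, 8.83 and 8.19 CPM in shControl and 4.39, 6.28 and 6.43 in shElp3. Fancl footprints had a log2 fold change of -0.35 ± 0.31 (adjusted p = 0.54). Fancc, another subunit, was highest in control A, at 23.8, 16.3 and 11.1 CPM in shControl and 14.6, 11.04 and 10.2 in shElp3 in RNA, and its groups overlapped in both fractions (adjusted p = 0.62 and 0.32). Fancc and Fancl were called in none of the 5 fits named for Xrcc3. Fancg, also of the core, had log2 fold changes of -0.23 ± 0.48 in RNA and -0.46 ± 0.35 in RPF, with control A the lowest library in each, and passed in RPF in letters B and C (adjusted p = 0.035). The translocase Fancm, which anchors the core to DNA, had -0.56 ± 0.38 and -0.89 ± 0.39, and passed in letters B and C (-0.73 ± 0.17, adjusted p = 0.0064, and -1.06 ± 0.20, adjusted p = 0.0041).

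In the checkpoint Chek1 fell in RNA and Topbp1 in RPF, while the kinases Atr and Chek2 were called in none of those fits. Chek1 (chr9:36708482-36726658), the effector kinase that Atr activates, had RNA of 16.7, 27.5 and 17.5 CPM in shControl and 3.06, 4.16 and 4.89 in shElp3. All 3 shElp3 values lay far below the lowest control value, and the RNA fell by 2.35 ± 0.32 on the log2 scale (adjusted p = 0.024). Chek1 footprints were 9.93, 62.4 and 50.9 CPM in shControl and 1.88, 6.48 and 10.2 in shElp3, where control A lay below the highest shElp3 value (-2.72 ± 0.73, adjusted p = 0.077, and 7.4e-06 in letters B and C). Chek2, the effector of Atm, had RNA of 51.2, 28.8 and 25.6 CPM in shControl and 46.7, 29.1 and 26.8 in shElp3 and footprints of 43.0, 51.0 and 52.5 CPM in shControl and 50.8, 56.7 and 45.1 in shElp3, which overlapped throughout (log2 fold changes -0.04 ± 0.35 and 0.06 ± 0.15, adjusted p = 0.98 and 0.85).

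Topbp1 (chr9:103305167-103350428) switches Atr on at stalled forks. Its footprints were 48.7, 104 and 83.6 CPM in shControl and 27.3, 28.0 and 36.6 in shElp3, a fall of 1.36 ± 0.28 (log2, adjusted p = 0.039), and its RNA was 107, 198 and 154 CPM in shControl and 41.2, 55.8 and 71.2 in shElp3. Topbp1 RNA had a log2 fold change of -1.45 ± 0.32 (adjusted p = 0.10, or 1.5e-04 with the block). Atr had RNA of 53.6, 61.5 and 56.4 CPM in shControl and 68.9, 51.9 and 76.1 in shElp3 and footprints of 19.2, 58.9 and 54.4 CPM in shControl and 39.4, 55.2 and 62.8 in shElp3, so the groups overlapped in both (log2 fold changes 0.20 ± 0.22 and 0.24 ± 0.39, adjusted p = 0.82 and 0.75). The lowest Atr footprint value was control A. Clspn, the adaptor that brings Chek1 to Atr, had RNA of 13.1, 37.4 and 36.9 CPM in shControl and 4.68, 8.55 and 7.41 in shElp3 (-2.09 ± 0.46, adjusted p = 0.10, or 5.0e-05 with the block) and footprints of 15.2, 62.8 and 53.9 CPM in shControl and 5.64, 12.1 and 17.3 in shElp3. Clspn footprints had a log2 fold change of -1.91 ± 0.55 (adjusted p = 0.093, and 2.6e-05 in letters B and C). Atm, the kinase of double-strand breaks, had smaller estimates: RNA was 55.9, 119 and 104 CPM in shControl and 57.3, 78.5 and 72.6 in shElp3 (-0.42 ± 0.32, adjusted p = 0.69) and footprints were 79.5, 122 and 105 CPM in shControl and 65.1, 78.7 and 77.8 in shElp3. Atm footprints had a log2 fold change of -0.47 ± 0.18 (adjusted p = 0.18). Atm passed in letters B and C, at -0.57 ± 0.15 in RNA (adjusted p = 0.014) and -0.54 ± 0.13 in RPF (adjusted p = 0.015).

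**Figure D3:**
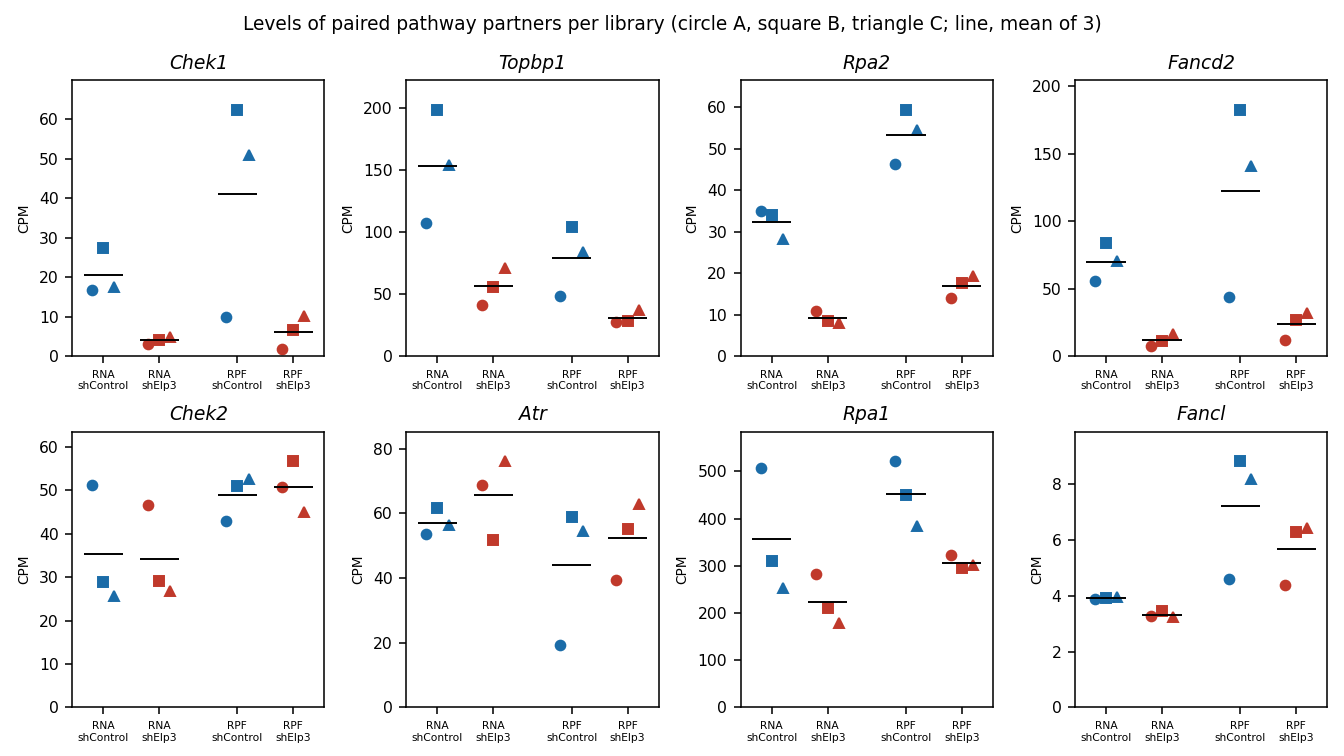
Level in CPM (y axis, from 0) of 4 pairs of working partners in each library, with shControl and shElp3 side by side for RNA and RPF. Circles, squares and triangles are letters A, B and C, and lines are means of 3 libraries. The means of Chek1, Topbp1, Rpa2 and Fancd2 are lower in shElp3, while points of Chek2 and Atr overlap, those of Fancl lie close together in RNA, and Rpa1 is at 62.8% of its control level in RNA.

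Replication protein A is a trimer of Rpa1, Rpa2 and Rpa3, and its subunits did not have equal estimates. Rpa2 (chr4:132768360-132778746) had RNA of 34.9, 34.1 and 28.3 CPM in shControl and 10.7, 8.55 and 7.88 in shElp3 and footprints of 46.3, 59.4 and 54.4 CPM in shControl and 14.0, 17.5 and 19.4 in shElp3. The groups were well apart in both, the RNA fell by 1.84 ± 0.24 (log2, adjusted p = 0.020) and the footprints by 1.65 ± 0.18 (adjusted p = 0.012). Rpa1, the largest subunit, had RNA of 506, 311 and 253 CPM in shControl and 283, 210.5 and 179.6 in shElp3, which overlapped, with the letter A library the highest of each group (-0.67 ± 0.33, adjusted p = 0.49, or 0.039 with the block). Its footprints were 522, 451 and 384 CPM in shControl and 324, 295 and 302 in shElp3 without overlap (-0.56 ± 0.14, adjusted p = 0.070, and 0.016 in letters B and C). Rpa3 is the smallest subunit. Its RNA was 55.9, 31.9 and 25.6 CPM in shControl and 32.8, 18.6 and 18.3 in shElp3 (-0.70 ± 0.38, adjusted p = 0.54, or 0.028 with the block) and footprints were 44.3, 84.0 and 70.8 CPM in shControl and 37.9, 43.1 and 39.3 in shElp3. Rpa3 footprints did not overlap and had a log2 fold change of -0.73 ± 0.23 (adjusted p = 0.11, and 9.5e-04 in letters B and C).

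Of the 5 genes of flap, nick and single-strand break processing, Pif1 and Lig1 were called. Pif1 (chr9:65587150-65595967), a helicase that unwinds flaps and quadruplex DNA, had the largest estimate of the 36 in both fractions. Its RNA was 20.6, 28.0 and 21.6 CPM in shControl and 1.80, 3.09 and 3.63 in shElp3, or 12.05% of the control level, and fell by 3.05 ± 0.34 (log2, adjusted p = 0.016). Its footprints were 4.34, 13.3 and 9.01 CPM in shControl and 0.627, 1.03 and 0.750 in shElp3 and fell by 3.45 ± 0.49 (adjusted p = 0.020), on 5, 10 and 7 counts in the shElp3 libraries. Lig1 (chr7:13277175-13311426), the ligase that seals the lagging strand, had footprints of 38.5, 112 and 86.5 CPM in shControl and 16.3, 21.6 and 21.4 in shElp3, and fell to 25.0% of the control level (adjusted p = 0.033). Lig1 RNA was 26.1, 67.0 and 63.8 CPM in shControl and 8.21, 15.9 and 12.8 in shElp3 (-2.09 ± 0.43, adjusted p = 0.083, or 1.1e-05 with the block), and neither fraction overlapped.

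Fen1, the nuclease that cuts the flap before Lig1 seals it, had RNA of 19.0, 52.5 and 49.5 CPM in shControl and 20.1, 18.3 and 21.1 in shElp3 and footprints of 8.81, 62.5 and 63.8 CPM in shControl and 14.3, 26.1 and 25.0 in shElp3. Control A lay among the shElp3 values in RNA and below them in RPF, while controls B and C were above them in both (-1.02 ± 0.39, adjusted p = 0.33, or 0.039 with the block, and -1.05 ± 0.62, adjusted p = 0.35). In letters B and C Fen1 passed, at -1.37 ± 0.17 and -1.31 ± 0.13 (adjusted p = 1.3e-05 and 4.9e-05). Parp1, which marks breaks with chains of ADP-ribose, had RNA of 136, 153 and 145 CPM in shControl and 117, 99.7 and 81.6 in shElp3 and footprints of 122, 161 and 145 CPM in shControl and 104, 105 and 101 in shElp3, apart in both. Parp1 had log2 fold changes of -0.54 ± 0.22 and -0.47 ± 0.14 (adjusted p = 0.37 and 0.10), and passed in letters B and C at -0.72 ± 0.15 and -0.57 ± 0.12 (adjusted p = 0.0028 and 0.0076). Xrcc1, the scaffold of single-strand break repair, overlapped in both fractions (-0.14 ± 0.24 and 0.10 ± 0.19, adjusted p = 0.90 and 0.80).

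None of the 3 end joining and mismatch genes was called with all libraries in edgeR. Xrcc6 and Xrcc5 are the subunits of Ku, the ring that caps broken ends. Xrcc6 (chr15:81987833-82040085) had footprints of 139, 167 and 181 CPM in shControl and 259, 232 and 223 in shElp3, every shElp3 value above every control (0.55 ± 0.14, adjusted p = 0.071). The difference passed in letters B and C (0.39 ± 0.12, adjusted p = 0.036) and with DESeq2 (adjusted p = 0.012), and Xrcc6 RNA, at 129.5, 91.0 and 101 CPM in shControl and 170.2, 129 and 120.3 in shElp3, overlapped through control A (0.38 ± 0.25, adjusted p = 0.62). Xrcc5 RNA was 58.6, 63.2 and 69.0 CPM in shControl and 58.4, 49.3 and 46.0 in shElp3, every shElp3 value below every control. It had a log2 fold change of -0.31 ± 0.21 (adjusted p = 0.64), and passed in letters B and C (-0.47 ± 0.16, adjusted p = 0.040). Its footprints overlapped (-0.16 ± 0.21, adjusted p = 0.70, and 0.035 without control A). Msh6, a mismatch recognition protein, had RNA of 140.1, 117 and 107 CPM in shControl and 166, 120.0 and 102 in shElp3 and footprints of 144, 167 and 155 CPM in shControl and 154, 162 and 156 in shElp3, with log2 fold changes of 0.09 ± 0.26 and 0.02 ± 0.12 (adjusted p = 0.95 and 0.95).

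Within a letter the 36 genes varied in size more than in sign. In RNA 25 members were below 0 in all 3 letters and 1, Xrcc6, was above in all, and the same counts held in RPF. Of the 12274 genes tested in RNA, 2937 were below 0 in all 3 letters and 3068 above. Of the 11343 tested in RPF, these counts were 2621 and 2633. The median ratio of shElp3 to shControl within a letter was -0.78 in A, -1.45 in B and -1.05 in C on the log2 scale in RNA, and -0.72, -1.31 and -1.02 in RPF. Over all genes tested these medians lay between -0.01 and 0.01. Letter A had the opposite sign to B and C for Brca2, Fancg, Fancm, Atm, Chek2, Fen1 and Xrcc1 in RNA and for Brca2, Fancg, Fen1 and Xrcc5 in RPF. Library A was often the lowest of its group. Control A was the lowest of the 3 controls for 25 members in RNA and 32 in RPF. Over all 36 members it lay below the mean of controls B and C by a median of 0.43 and 1.05 (log2). The shElp3 library A was the lowest of its 3 for 20 members in RNA and 27 in RPF.

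**Figure D4:**
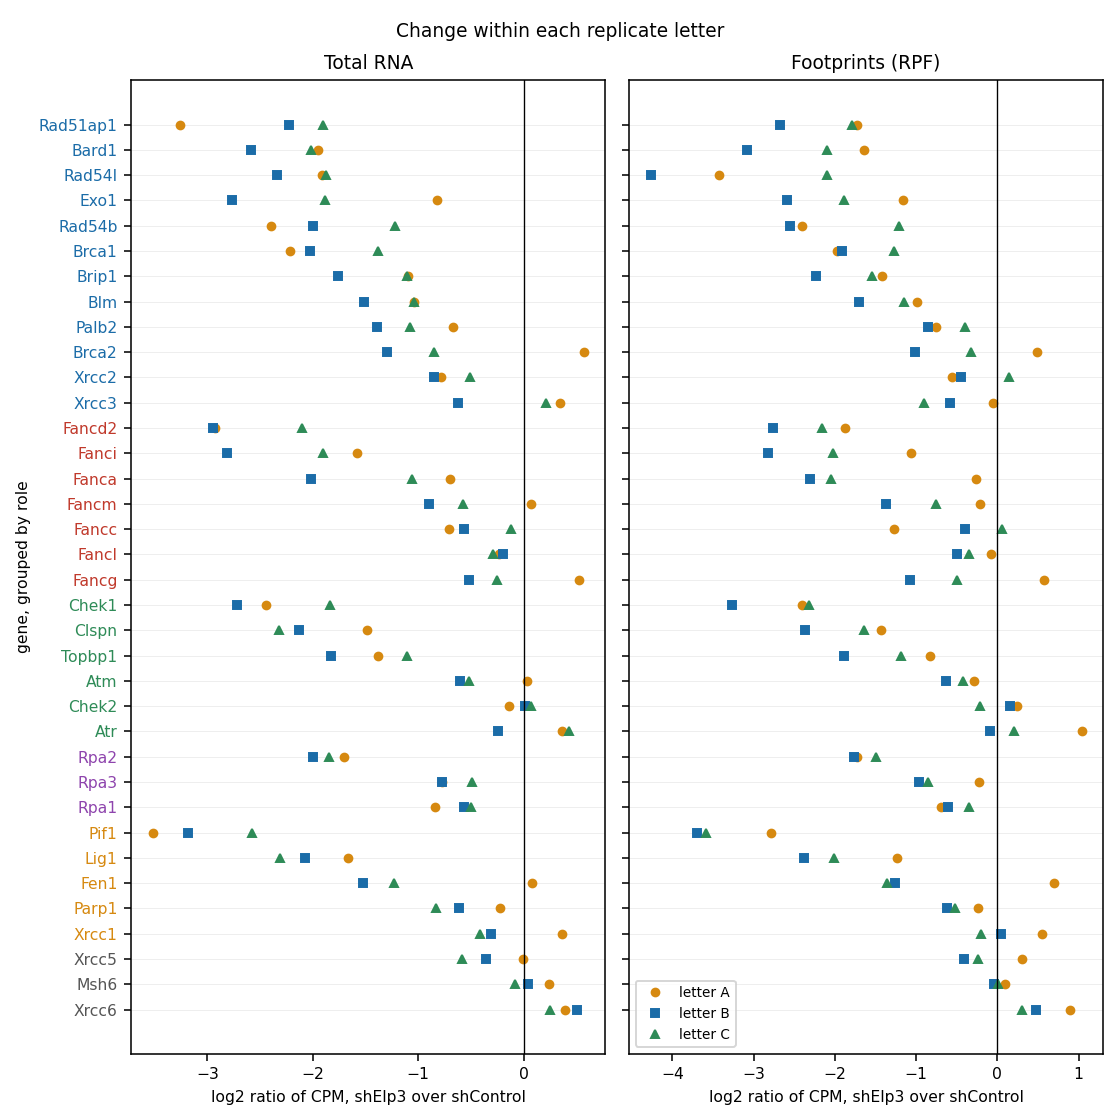
Ratio of shElp3 to shControl within letters A, B and C for the 36 genes in RNA and RPF, as log2 ratio of CPM (x axis) with 1 row per gene and a point per letter. In both fractions 25 genes are below 0 in all 3 letters, and the median of letter A is nearer to 0 than that of B, at -0.78 against -1.45 in RNA.

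No member passed a test for a change in translation. Translational efficiency, the footprint level relative to RNA, was tested as an interaction in a model over the 12 libraries, and 0 of the 36 members and 0% of the 11238 genes tested were called by edgeR without a block, with the letter or the culture as a block, or by DESeq2. In letters B and C alone 0 members and 2 genes were called (0.0177%). At an unadjusted p under 0.05, 0 members stood without a block, where 62 genes did (0.552%), and 0 with the letter block or DESeq2. Member changes ran from -0.92 ± 0.90 for Rad54l to 0.42 ± 0.38 for Xrcc2, 33 of 36 were within 0.5 of 0 on the log2 scale, and the standard error ran from 0.25 to 1.00 with a median of 0.54. With the letter as a block the median standard error was 0.31, and the lowest unadjusted p without a block was 0.29. Changes in translation of the size of these errors were not detectable with 3 cultures a group. The members called in RNA and in RPF are not the same, and 0 of them passed this test of the difference between the fractions.

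With the culture as a block 1 member, Rad54l, had an unadjusted p under 0.05, beside 1.64% of all genes, and in letters B and C 1 member, Fanca, beside 3.28%. Those counts are near the background. Rad54l had log2 ratios of RPF to RNA of 0.09, 0.00 and -0.08 in shControl and -1.42, -1.93 and -0.31 in shElp3. For Pif1 the ratios were -2.25, -1.07 and -1.26 in shControl and -1.52, -1.58 and -2.27 in shElp3, for Chek1 -0.75, 1.18 and 1.54 in shControl and -0.70, 0.64 and 1.06 in shElp3 and for Fancd2 -0.34, 1.13 and 1.00 in shControl and 0.72, 1.31 and 0.95 in shElp3, which overlapped. In several members the control A ratio was lower than those of control B and C by more than 1 on the log2 scale. They included Chek1, Fancd2, Rad51ap1, Brip1, Fanci and Atr. The median ratio over the 36 members was -0.14, 0.22 and 0.35 in control A, B and C and 0.04, 0.18 and 0.32 in shElp3.

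**Figure D5:**
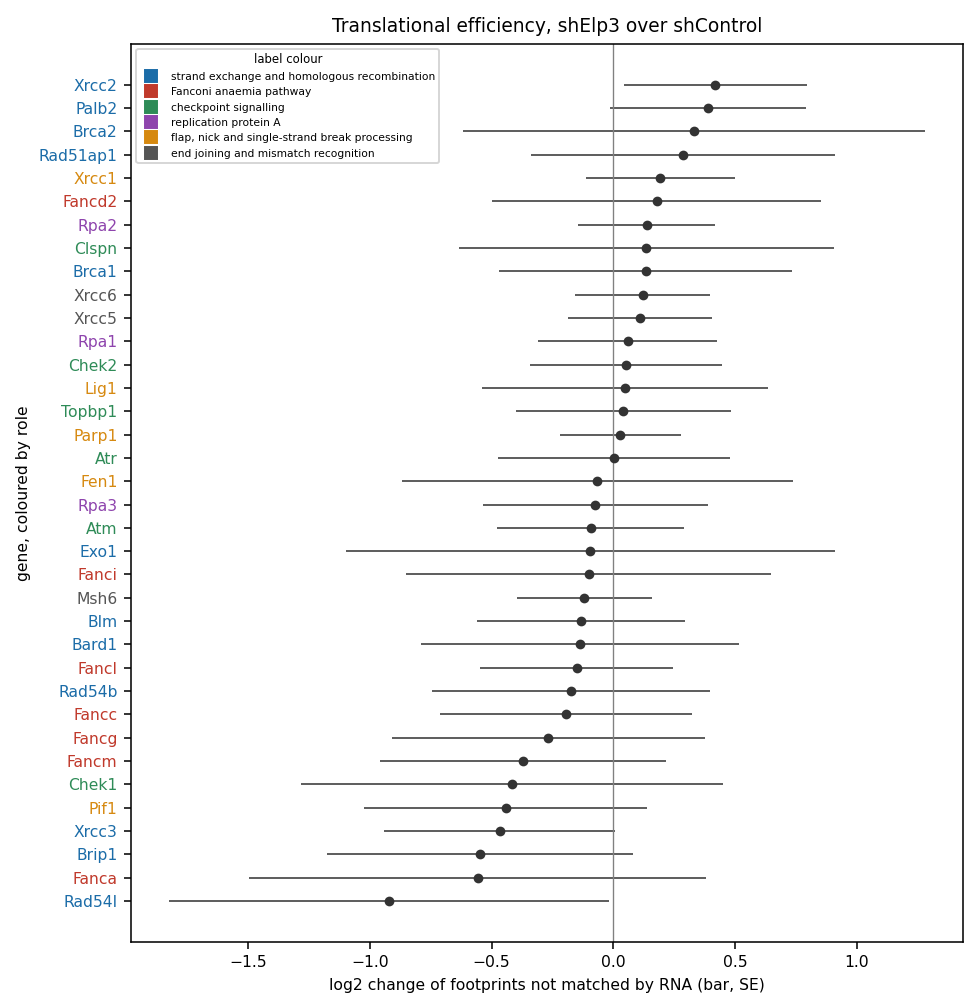
Change in translational efficiency of each of the 36 genes (x axis, log2, shElp3 over shControl) with bars of 1 standard error and gene names coloured by role. The points lie from -0.92 to 0.42 and none of the 36 passed the test.

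Other repair genes, a list of 128 outside the 36, had medians nearer 0. The members and lists were chosen with earlier results of these data known, so this contrast is a description and not a test. In RNA 126 were tested, 3 fell and 0 rose (median -0.10), or 2.38% lower beside 0.921% of all genes. In RPF 124 were tested, 12 fell and 2 rose (median -0.15), or 9.68% and 1.61% beside 3.06% and 1.77%. The share that rose in RPF was near that of all genes. With the letter block 31 fell and 1 rose in RNA, or 24.6% and 0.794% beside 6.75% and 5.46%. In letters B and C 36 fell and 8 rose in RPF, or 28.8% and 6.4% beside 12.2% and 9.41%. By list, the median was -0.46 in RNA and -0.32 in RPF for other recombination genes, -0.41 and -0.38 for other checkpoint genes, 0.06 and 0.03 for other Fanconi and translesion genes, and 0.05 and 0.06 for excision, mismatch and end joining genes. The 3 called in RNA were Parpbp, a regulator of recombination (22.4 ± 5.06 against 4.28 ± 0.939 CPM, log2 fold change -2.38, adjusted p = 0.019), the chromatin remodeller Hells (41.5 ± 11.3 against 13.5 ± 0.931 CPM, log2 fold change -1.62, adjusted p = 0.043) and the base excision glycosylase Neil3 (17.9 ± 3.70 against 2.87 ± 0.966 CPM, log2 fold change -2.64, adjusted p = 0.021).

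Values are again shControl against shElp3 for the genes called in RPF. Rad51b, a recombinase paralog, had 15.5 ± 2.19 against 5.97 ± 0.764 CPM, log2 fold change -1.38, adjusted p = 0.022, and Trip13, a remodeller of checkpoint and recombination proteins, had 13.5 ± 6.25 against 3.43 ± 0.818 CPM, log2 fold change -1.98, adjusted p = 0.040. Ube2t, the ubiquitin conjugating enzyme that works with Fancl, had 37.9 ± 4.42 against 14.4 ± 0.339 CPM, log2 fold change -1.40, adjusted p = 0.012. The translesion polymerase Polh had 61.1 ± 4.03 against 29.8 ± 2.26 CPM, log2 fold change -1.03, adjusted p = 0.016, and Rad18, the ligase that calls such polymerases to forks, had 72.2 ± 8.20 against 36.4 ± 3.69 CPM, log2 fold change -0.99, adjusted p = 0.023. Wee1, a kinase that restrains mitotic entry, had 55.2 ± 7.26 against 24.9 ± 4.55 CPM, log2 fold change -1.15, adjusted p = 0.025, and the break marker histone H2afx had 209.6 ± 139.9 against 35.5 ± 8.54 CPM, log2 fold change -2.56, adjusted p = 0.049. Ung, which removes uracil from DNA, had 13.3 ± 0.840 against 5.24 ± 1.26 CPM, log2 fold change -1.34, adjusted p = 0.027, and Tdp2, which frees trapped topoisomerase, had 47.1 ± 7.47 against 26.8 ± 3.29 CPM, log2 fold change -0.81, adjusted p = 0.041. Trp53bp1, which favours end joining over resection, rose (90.1 ± 10.7 against 145 ± 4.91 CPM, log2 fold change 0.68, adjusted p = 0.038), as did the glycosylase Neil2 (3.402 ± 0.467 against 8.46 ± 1.13 CPM, log2 fold change 1.32, adjusted p = 0.033).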

How the data were processed

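All libraries came from Illumina's TruSeq Ribo Profile kit, per the labels. The authors deposited raw read counts per gene symbol, and bcl2fastq, Bowtie, TopHat2 2.1.1 and HTSeq with build mm10 are named, per the submitters' processing notes. The sources used here do not give the annotation, strand setting or counting region, so reads of overlapping or near-identical genes may be mixed. Each fraction was filtered with filterByExpr (minimum count 10), scaled by TMM and tested with edgeR 4.0.16 (quasi-likelihood, R 4.3.3), adjusting p-values by Benjamini-Hochberg across every gene of the fraction, at a threshold of 0.05. Translational efficiency was the interaction of fraction and shRNA over the 12 libraries. A standard error is the log2 fold change divided by the root of F, CPM are given per library or as mean ± SD (n = 3), and the scripts were tested on simulated counts. Alternatives were DESeq2 1.42.0, other scalings and filters, blocks and leaving out each library.

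Whether letters mark pairs was checked by correlating deviations from the group means across genes. Same-letter libraries had r of 0.807, 0.423 and 0.582 (A, B, C) in RNA and 0.769, 0.466 and 0.492 in the ratio of RPF to RNA. Control B with shElp3 C and control C with shElp3 B had 0.688 and 0.579 in RNA, and 0.519 and 0.587 in the ratio. The check thus sets letter A apart, and cannot show that B and C mark pairs. Blocked values stand beside those results as an alternative only. In RPF the same-letter r was 0.328, -0.107 and 0.215, so the letters were not taken as pairs there. Members were assigned to 6 roles by hand, and all could be named. Of the lists of other repair genes, up to 4 called members of each in each comparison by adjusted p were open to naming, and those with none called are given by their counts. Some genes open to naming are not reported here. Members and lists were chosen with earlier results of these data known. Positions, promoter windows and their sequences are RefSeq's for GRCm38.p6, and all 36 members were matched to a RefSeq gene.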

Additional observations from a re-analysis of the deposited data

How the results depend on the processing

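Direction held for every called member under every setting run, and the number of calls did not. Against 5 members lower in RNA, the replicate block by letter gave 22, letters B and C alone 27, no filter beyond 1 count 11 and DESeq2 16, and leaving out 1 library gave 0 to 19. Against 9 lower in RPF, the same settings gave 17, 25, 17 and 20, and leaving out 1 library gave 0 to 26. In RPF the replicate block called 3.91% of all genes lower. No filter beyond 1 count called 203 genes of the whole table in RNA and 764 in RPF, both directions together. The main fits called 140 and 548. Members called higher in RPF were 0, but 1 (Xrcc6) in letters B and C and with DESeq2, and 0 to 1 with 1 library left out. The replicate block changed no translational efficiency call. Of the values of single members over those settings, 72 in RNA and 63 in RPF newly passed the threshold and 25 and 45 no longer did.

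For other repair genes lower in RNA (3 at first), the replicate block gave 31, letters B and C 39, no filter 6, DESeq2 19 and leaving out 1 library 0 to 18, and higher in RNA (0) gave 1 with the replicate block and 2 in letters B and C. Lower in RPF (12) gave 36 in letters B and C, 19 with no filter, 23 with DESeq2 and 0 to 46 with 1 library left out, and higher in RPF (2) gave 8 in letters B and C and 0 to 10. Over all genes, 140 called in RNA became 1499 with the replicate block, 2377 in letters B and C, 652 with DESeq2 and 0 to 540 with 1 library left out. In RPF 548 became 2477 in letters B and C, 1308 with DESeq2 and 0 to 2856 with 1 library left out. With no filter these totals were 203 in RNA and 764 in RPF. The 0 of translational efficiency became 2 in letters B and C. Leaving out a library lowers the number of samples, and otherwise the cause was not tested. A planned count of lysine, glutamate and glutamine in the proteins was not run. Depth limits Pif1 and Rad54l footprints, with 5 to 35 counts in shElp3.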
